A study of Mus musculus with 35 samples.

Results

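The comparison described here is the interaction of genotype and fasting in mouse hypothalamus: the log2 fold change on fasting in PER2-S662D mice minus the log2 fold change on fasting in control mice, called the difference of responses. It drew on 30 of the 35 libraries of the series, chosen by their labels alone: 10 from control mice fed ad libitum, 10 from control mice after a fast of 16 h, 5 from fed PER2-S662D mice and 5 from fasted PER2-S662D mice. The other 5 libraries, from fasted mice labelled Per2 knockout, served only to estimate the spread between replicates. All mice were males of strain B6/J, all were sampled at Zeitgeber time 16 (hours after lights-on), the fast ran from lights-on to sampling, and polyadenylated RNA of a dissected hypothalamic block was sequenced. The question the design poses is whether the hypothalamus of the mutant answers a fast as the control hypothalamus does, pathway by pathway. How the PER2-S662D allele was made, whether the controls were littermates and whether each library came from its own mouse are not given in the sources used here, so p-values measure the spread between these libraries.

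PER2 is a repressor of the circadian clock that, with CRY proteins, shuts off the CLOCK-BMAL1 activator that drives its own gene. S662D puts an aspartate, whose charge resembles that of a phosphate, at a serine that sets how long the protein lasts, and the corresponding human serine is altered in a family with advanced sleep phase. In a fast the hypothalamus raises hunger peptides in the arcuate nucleus, while rising glucocorticoids from the adrenal gland switch on a set of genes through their receptor in most brain cells. Per2 RNA itself ranged from 16.9 to 21.4 CPM (counts scaled to a fixed library total) in fed and 16.4 to 22.7 CPM in fasted PER2-S662D libraries, and from 25.9 to 32.6 CPM and 26.1 to 33.1 CPM in the matching controls. Its level was lower in every PER2-S662D library than in any control library of the same feeding state, and its difference of responses was 0.04 (95% interval -0.15 to 0.23). A count of gene reads does not show the substitution itself. Libraries held 17959586 to 37027342 counts assigned to genes, the deepest being PER2-S662D libraries, and 6.24% to 9.08% of the counts were mitochondrial. The hypothalamic peptide genes Hcrt and Pomc averaged 98.0 and 18.6 CPM.

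Across all genes, no gene was called for the difference of responses with all 10 control pairs of libraries: 0 of 18063 genes (0%) had an adjusted p below 0.05 in edgeR's quasi-likelihood test (Benjamini-Hochberg), and limma-voom and DESeq2 also called 0. Without adjustment, 1151 genes (6.37%) had a p below 0.05. The lowest adjusted p was 0.762. For 11901 genes (65.9%) the 95% interval lay wholly between -0.5 and 0.5 on the log2 scale. This bounds their difference from the average response of all controls to under that size. For 15689 genes (86.9%) it lay between -1 and 1. The median interval reached 0.231 to either side of its gene's value. A gene outside these bounds was not shown to respond equally or differently.

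Control libraries numbered 1-5 and 6-10 in their titles carry library numbers from separate ranges in the file headers, and the PER2-S662D libraries come from a further range. They gave separate answers when each was used as the only control. Against control libraries 1-5, 486 of 17775 genes (2.73%) were called, 306 with the higher and 180 with the lower response in PER2-S662D. Under scaling by library size alone, 492 genes were called but with the balance turned, 171 of them higher. Against control libraries 6-10, 0 of 17812 genes (0%) were called by edgeR, limma-voom and DESeq2, with 850 genes (4.77%) below 0.05 before adjustment. The same difference computed within the control genotype, the response of controls 1-5 minus that of controls 6-10, called 1918 of 18063 genes (10.6%), 836 higher and 1082 lower. The bounds with all controls thus concern an average of sets that responded differently. With each set a group of its own and their mean response as control, 0 genes were called (lowest adjusted p = 0.160, edgeR's quasi-likelihood test). Before adjustment, 1403 genes had a p below 0.05 in that fit. Whether the sets differ by batch, cohort or day is not given in the sources used here, and these cannot be told apart from the set. The calls against controls 1-5 also moved with single libraries: leaving out fed control 4 gave 56 genes and leaving out fasted PER2-S662D 3 gave 1057. In PER2-S662D libraries 2, 3 and 4 of either feeding state, the header's library number ends in 1 more digit than in the others. Those 6 alone gave 9 genes against all controls and 1304 against controls 1-5, and the other 4 gave 0 against controls 1-5. A fit with fewer libraries calls genes less readily, so these counts do not measure an effect of the digit.

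**Figure D1:**
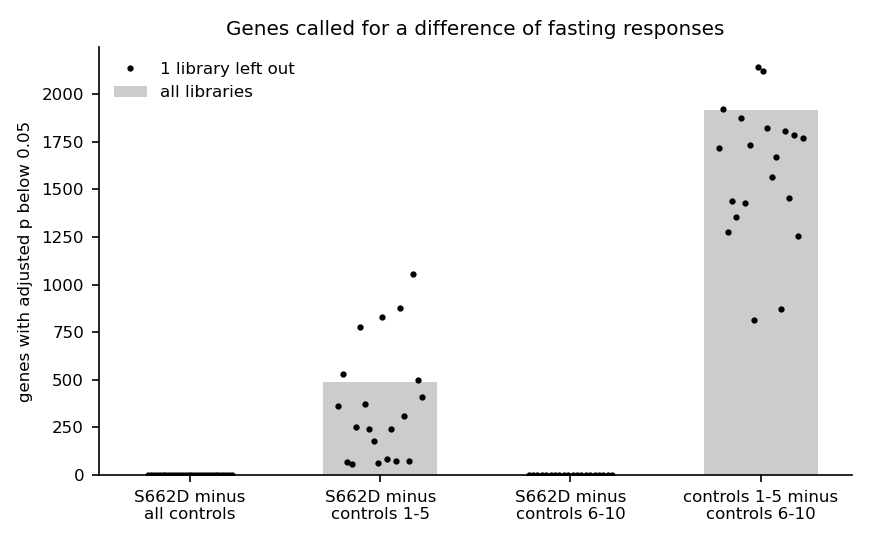
Number of genes with an adjusted p below 0.05 (edgeR's quasi-likelihood test) for 4 differences of fasting responses. Bars are counts with all libraries (0, 486, 0 and 1918) and dots are counts with 1 library left out; dots stay at 0 for all controls and for controls 6-10, and spread from 56 to 1057 for controls 1-5.

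Fasting called 701 genes in controls (3.88%; 397 or 2.2% higher and 304 or 1.68% lower) and 476 in PER2-S662D (2.64%; 326 higher and 150 lower, but 262 of 590 higher with library size alone). Controls 1-5 alone had 1315 such genes (7.4%) and controls 6-10 alone 304 (1.71%). With all controls, 306 genes were called in both genotypes, all 306 in the same direction, 395 in controls only and 170 in PER2-S662D only. A call in 1 genotype alone is not a difference between genotypes. For 220 of the 306 shared genes (71.9%) the interval of the difference lay within 0.5, against 65.9% of all genes. The response was larger in size in PER2-S662D for 252 of the 306, with a median difference of 0.06. Among genes called in neither genotype it was larger in 10850 of 17192, and among those called in controls only in 59 of 395. A call in PER2-S662D, with fewer libraries, takes a larger response, so the 252 do not show a stronger response in the mutant. Cdkn1a, which encodes the cell cycle inhibitor p21, rose by 2.64 on the log2 scale in controls and 2.61 in PER2-S662D, a difference of -0.03 (-1.04 to 0.98). Txnip, an arrestin-like protein that restrains glucose uptake, rose by 1.19 and 1.23, with a difference of 0.04 (-0.32 to 0.40). Angptl4, an inhibitor of lipoprotein lipase, rose by 1.61 and 1.54, a difference of -0.06 (-0.66 to 0.53). Arl4d, a small GTPase of the ARF family, rose by 1.65 and 2.13, and its difference of 0.47 had an interval of -0.06 to 1.01. Itgad, an integrin subunit of leukocytes, rose by 2.23 and 2.25, a difference of 0.02 (-0.92 to 0.96). The intervals of Cdkn1a, Angptl4 and Itgad were wide, so these genes were not shown to respond equally. With the PER2-S662D libraries that carry the additional header digit and with those that lack it, the difference was 0.26 and -0.58 for Cdkn1a, 0.30 and -0.82 for Angptl4, 0.63 and -0.82 for Itgad, 0.31 and -0.41 for Txnip, and 0.70 and 0.13 for Arl4d. Only replicates 1 and 5 lack the digit. Fasted replicate 1 was low in the glucocorticoid-induced list described below, so digit and library cannot be told apart. Itgad shares 19.7% of its 50-base windows with other genes, chiefly Itgax.

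**Figure D2:**
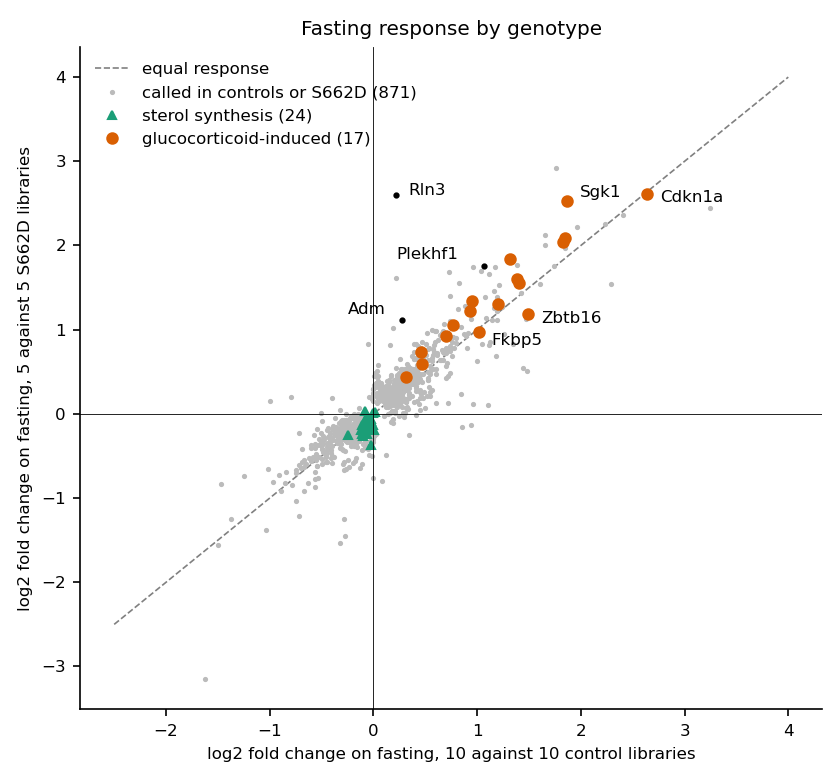
Log2 fold change on fasting in 10 against 10 control libraries (x axis) and 5 against 5 PER2-S662D libraries (y axis) for the 871 genes called in either genotype, with members of 2 gene lists marked; the dashed line is an equal response. Members of the glucocorticoid-induced list lie near the line in the upper right, with Sgk1 above it and Zbtb16 below it.

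The glucocorticoid-induced list rose in full in both genotypes. Like the other lists, it was written with earlier results of these data known, so its counts are a description and not a test. All 17 of its 17 measured members were called higher in PER2-S662D (background 1.8% of genes called higher), 17 in controls 1-5 (3.16%) and 14 in controls 6-10 (1.06%), with median log2 responses of 1.30, 1.31 and 1.11. Its median difference of responses was 0.22 with all controls, 0.22 with controls 1-5 and 0.31 with controls 6-10, where all genes had a median of 0.00. None of the 17 was called for the interaction, 14 had a difference above 0, and 4 had an unadjusted p below 0.05, all 4 higher in PER2-S662D (background 3.12%). Only 3 of the 17 had an interval within 0.5, against 65.9% of all genes. For the list as a whole a stronger response in the mutant was thus neither shown nor bounded closely.

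Promoter sequence is shown for 3 members of this list because they rose together and their start regions hold the palindromic glucocorticoid response element. The letters GNACA and TGTNC with any 3 bases (NNN) between them, which read the same on both strands, were searched in the 250 bases before the transcript start of RefSeq entries for build GRCm38.p6. The element was found in 3 of the 16 members with an entry, and in 0.387% of 32851 promoter entries in all. A member counted if any of its entries matched, while the percentage is of single entries, so the shares are in unlike units. A match is a description of the sequence and not evidence of binding. The matched bases are in capitals in Sgk1 (chr10:21993640-21993889, plus strand), Map3k6 (chr4:133240568-133240817, plus strand) and Mt1 (chr8:94178839-94179088, plus strand).
Sgk1: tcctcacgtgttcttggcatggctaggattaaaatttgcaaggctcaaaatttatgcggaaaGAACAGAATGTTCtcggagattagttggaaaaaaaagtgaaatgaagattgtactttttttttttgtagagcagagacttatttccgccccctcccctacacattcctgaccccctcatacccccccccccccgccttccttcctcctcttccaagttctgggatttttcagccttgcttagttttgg
Map3k6: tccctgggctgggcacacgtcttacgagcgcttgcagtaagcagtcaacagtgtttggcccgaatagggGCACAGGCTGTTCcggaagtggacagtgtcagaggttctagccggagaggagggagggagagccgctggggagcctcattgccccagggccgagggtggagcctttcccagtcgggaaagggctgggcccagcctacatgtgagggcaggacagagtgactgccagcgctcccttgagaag
Mt1: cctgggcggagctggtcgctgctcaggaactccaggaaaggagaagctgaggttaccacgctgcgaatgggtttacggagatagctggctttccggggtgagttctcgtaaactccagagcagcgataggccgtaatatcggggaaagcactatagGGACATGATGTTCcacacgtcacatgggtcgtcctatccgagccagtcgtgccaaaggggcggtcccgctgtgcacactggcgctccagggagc
The element begins 188 bases before the start in Sgk1, 181 in Map3k6 and 94 in Mt1. Map3k6, a stress-activated kinase of the MAP kinase cascade, rose by 1.20 in controls and 1.30 in PER2-S662D, a difference of 0.10 (-0.48 to 0.69). Mt1, a metallothionein that binds zinc and copper, rose by 0.70 and 0.92, a difference of 0.22 (-0.05 to 0.49).

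Sgk1, a kinase induced by glucocorticoids that acts on ion channels and transporters, had the highest difference in the list with all controls and with controls 1-5, while with controls 6-10 that of Hif3a, a hypoxia-inducible factor, was highest (0.71). Fed PER2-S662D libraries stood at 52.9, 40.6, 46.4, 44.9 and 48.2 CPM, and the fasted ones at 155, 302, 319, 279 and 284 CPM. Fed controls ranged from 40.9 to 89.5 CPM (median 64.4) and fasted controls from 114 to 301 CPM (median 264). Fed and fasted libraries did not overlap in either genotype, fed PER2-S662D libraries lay in the lower part of the fed control range or just under it, and 1 fasted PER2-S662D library lay well below the other 4. The log2 response was 2.53 in PER2-S662D and 1.87 in controls, a difference of 0.66 (0.12 to 1.19; unadjusted p = 0.0177, adjusted p = 0.766, edgeR's quasi-likelihood test), and without that low fasted library the difference was 0.80 (adjusted p = 0.463). The difference was 0.67 with controls 1-5 and 0.64 with controls 6-10. Nfkbia, the inhibitor that holds NF-kappaB in the cytoplasm, had a difference of 0.39 (0.02 to 0.76). Tsc22d3, also called GILZ, had 0.30 (0.02 to 0.57), and Klf15, a transcription factor of nutrient metabolism, had 0.28 (0.03 to 0.52). For each of these 3 the adjusted p was 0.771 in edgeR's quasi-likelihood test. With PER2-S662D libraries that carry the additional header digit and with those that lack it, the difference was 0.91 and 0.25 for Sgk1, 0.64 and 0.00 for Nfkbia, 0.46 and 0.02 for Tsc22d3, and 0.47 and -0.04 for Klf15. The low fasted library, replicate 1, lacks the digit, so the digit and that library cannot be told apart here. Members of the list also went the other way: Zbtb16, a zinc-finger repressor, had a difference of -0.31 (-1.02 to 0.40), and Fkbp5, a chaperone partner of the glucocorticoid receptor, had -0.05 (-0.50 to 0.41). Nr3c1, which encodes the receptor itself, fell by 0.25 in controls and by 0.33 in PER2-S662D.

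The mean log2 level of the list, centred over all libraries, showed how uneven the fasted libraries were. The fasted PER2-S662D libraries stood at -0.17, 0.81, 0.85, 0.54 and 0.64. The fasted controls 1-5 ranged from 0.54 to 0.80, while fasted controls 6-10 stood at 0.05, 0.17, 0.25, 0.05 and 0.82. The first fasted PER2-S662D library and 4 of the 5 fasted controls 6-10 were thus lower than the rest of the fasted libraries, though above all fed ones. Leaving out single libraries moved the list's median difference between 0.15 and 0.32.

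Genes with the lowest unadjusted p for the interaction were chosen for that rank, and none passed the adjusted test (lowest adjusted p = 0.762, edgeR's quasi-likelihood test). Stac2, an adaptor of voltage-gated calcium channels, stood at 23.3, 22.4, 19.9, 21.9 and 21.3 CPM in fed and at 27.5, 30.2, 33.2, 32.2 and 26.1 CPM in fasted PER2-S662D libraries. Controls ranged from 23.1 to 33.6 CPM fed (median 27.7) and from 25.5 to 34.0 CPM fasted (median 27.4). The genotypes overlapped in the fasted state, and in the fed state 4 of 5 PER2-S662D libraries lay below every control. Its log2 response was 0.45 in PER2-S662D and 0.02 in controls, a difference of 0.43 (0.22 to 0.65). Against controls 1-5 the difference was 0.61 (adjusted p = 0.00268), and against controls 6-10 it was 0.24. With the PER2-S662D libraries that carry the header digit and with those that lack it, the difference against all controls was 0.55 and 0.25.

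Adm, which encodes the vasodilator peptide adrenomedullin, stood at 1.87, 1.43, 2.43, 2.08 and 2.03 CPM in fed and 4.03, 5.03, 5.04, 3.97 and 3.08 CPM in fasted PER2-S662D libraries. Fed controls ranged from 2.11 to 3.76 CPM (median 3.03) and fasted controls from 2.66 to 4.36 CPM (median 3.54). Fed and fasted PER2-S662D libraries were fully apart, while fed and fasted controls overlapped. Groups of 10 overlap more readily than groups of 5, so this does not compare the genotypes. How many of all genes part in this way was not counted, for Adm or for any other gene described by its overlap. The difference of responses was 0.84 (0.39 to 1.29), 0.86 with controls 1-5 and 0.82 with controls 6-10, and it was 1.00 with the libraries that carry the digit and 0.59 with the others. Plekhf1, a lysosome-associated protein with a PH and a FYVE domain, stood at 5.52, 3.62, 5.69, 4.34 and 5.94 CPM in fed and 11.3, 20.9, 14.7, 18.8 and 17.7 CPM in fasted PER2-S662D libraries. Its fed controls ranged from 5.38 to 9.60 CPM and its fasted controls from 12.8 to 19.1 CPM. Fasted PER2-S662D libraries spread from just under to just over the fasted control range, and fed PER2-S662D libraries sat at and below the bottom of the fed control range. The response was 1.76 against 1.07 in controls, a difference of 0.69 (0.33 to 1.06). It was 0.97 with the PER2-S662D libraries that carry the additional header digit (adjusted p = 0.0321, edgeR's quasi-likelihood test) and 0.28 with the others. Plekhf1 was chosen for its low p in a fit that holds these libraries, so that adjusted p is not separate support.

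Fth1, the heavy chain of the iron store ferritin, ranged from 1310 to 1445 CPM in fed and from 1567 to 1878 CPM in fasted PER2-S662D libraries. Controls ranged from 1346 to 1633 CPM fed and from 1446 to 1770 CPM fasted. The PER2-S662D libraries did not overlap between feeding states and the controls did. The controls had 10 libraries per state and PER2-S662D 5, so this does not compare the genotypes. Its difference was 0.26 (0.12 to 0.40), with 0.37 in the libraries that carry the digit (adjusted p = 0.0321, edgeR's quasi-likelihood test) and 0.08 in the others. Its call against controls 1-5 (0.25, adjusted p = 0.0491) was lost when any of 14 single libraries was left out. Mkks, a chaperonin-like protein of the ciliary base, had a difference of 0.33 (0.17 to 0.49), but 27.3% of its 50-base windows also occur in transcripts under another gene name. In the lower direction, Wsb1, a subunit of an E3 ubiquitin ligase, had a difference of -0.31 (-0.48 to -0.14). For Wsb1 the value was -0.52 with the libraries that carry the digit (adjusted p = 0.000216) and -0.04 with the others. Dlec1, a protein of cilia, had -0.63 (-0.98 to -0.28), with -0.87 and -0.24 in the same split. Fth1 and Wsb1 were chosen for a low p in a fit that holds the libraries with the digit. Their adjusted p-values in those libraries are therefore not separate support.

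**Figure D3:**
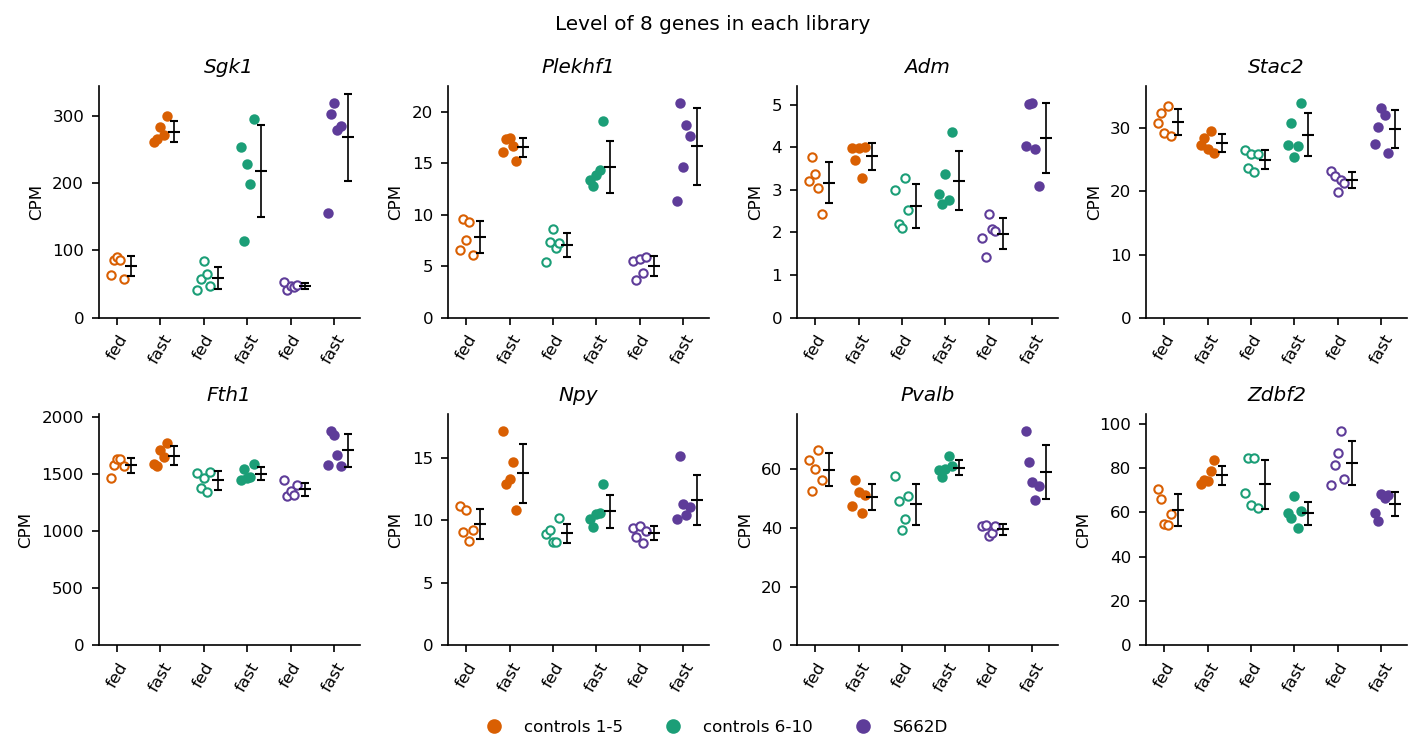
CPM of 8 genes in every library by control set, genotype and feeding state (open points fed, filled points fasted), with mean ± SD at the side of each group (n = 5). Fed PER2-S662D libraries of Sgk1, Plekhf1, Adm, Stac2 and Pvalb sit toward or under the low end of the fed controls, and fasted ones overlap fasted controls.

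Hunger peptides of the arcuate nucleus rose in controls, and the mutant was not shown to differ. Npy, whose peptide drives feeding, ranged from 8.26 to 11.1 CPM (median 9.12) in fed and from 9.43 to 17.1 CPM (median 11.8) in fasted controls. In PER2-S662D it stood at 9.36, 8.64, 9.55, 8.21 and 9.14 CPM fed and 10.1, 15.1, 11.3, 10.4 and 11.1 CPM fasted. All fasted PER2-S662D libraries were above all fed ones, and the control groups, of 10 libraries and not 5, overlapped. The response was 0.39 in controls (adjusted p = 0.00263, edgeR's quasi-likelihood test) and 0.37 in PER2-S662D (adjusted p = 0.0786), and the difference of -0.01 had an interval of -0.31 to 0.28. Agrp, the melanocortin receptor antagonist made by the same neurons, stood at 4.20, 2.24, 4.09, 3.15 and 2.79 CPM in fed and 2.95, 4.52, 3.61, 2.31 and 4.27 CPM in fasted PER2-S662D libraries, which overlapped. It ranged from 1.69 to 3.71 CPM in fed and from 2.71 to 6.30 CPM in fasted controls. It rose by 0.61 in all controls (0.88 in controls 1-5 and 0.27 in controls 6-10) and had a response of 0.13 in PER2-S662D. Its difference of -0.47 had an interval of -1.02 to 0.08, which bounds it poorly, and 11.3% of its exon length overlaps another gene. With control set 1-5 the Agrp difference was -0.75 and with set 6-10 it was -0.13. The neuropeptides orexin (Hcrt) and galanin (Gal) had differences of -0.01 (-0.31 to 0.28) and -0.29 (-0.63 to 0.04), and the satiety precursor Pomc had 0.15 (-0.28 to 0.58).

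Clock repressors and outputs responded alike within the bound of 0.5. All 10 clock repressors and all 7 clock outputs had intervals within 0.5, against 65.9% of all genes, with median differences of 0.03 and 0.02. An unadjusted p below 0.05 was reached by 0 of either, against 6.37% of all genes. Per1, a repressor with a promoter open to glucocorticoid signals, rose by 0.36 in controls and by 0.41 in PER2-S662D, a difference of 0.05 (-0.14 to 0.24). Bhlhe40, another transcriptional repressor of the loop, fell by 0.32 in controls and had a response of -0.17 in PER2-S662D, a difference of 0.16 (-0.01 to 0.32). Nr1d1, which encodes the nuclear receptor REV-ERB alpha, fell by 0.24 in controls and had -0.15 in PER2-S662D, a difference of 0.09 (-0.06 to 0.25). Dbp, a clock output factor, had a difference of 0.08 (-0.26 to 0.42). Against controls 1-5 and 6-10, Dbp had 0.22 and -0.04 and Per1 had 0.00 and 0.11, so neither set gave these genes a large difference. Of 8 clock activators, 6 had intervals within 0.5, not far from the share of all genes, so this list was not shown to respond alike. Its median difference was -0.20 with controls 1-5 and 0.01 with controls 6-10.

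Of 24 sterol synthesis genes, 5 were called lower on fasting in PER2-S662D (background 0.83%), 0 in controls 6-10 (0.646%) and 2 in controls 1-5 (4.24%). The median responses were -0.13, -0.05 and -0.05. Their median difference was -0.06, and 20 of 24 were below 0. An unadjusted p below 0.05 in the lower direction was reached by 3 (background 3.26%). Of the 24 intervals, 23 lay within 0.5, against 65.9% of all genes. Sqle, squalene epoxidase, stood at 87.0, 90.4, 81.4, 91.3 and 87.8 CPM in fed and 72.2, 82.0, 70.8, 76.5 and 69.2 CPM in fasted PER2-S662D libraries. In controls it ranged from 71.6 to 87.9 CPM fed (median 80.2) and from 68.5 to 84.2 CPM fasted (median 75.7). Fed PER2-S662D libraries lay in the upper part of the fed control range or over it, and fasted ones lay within the fasted control range. Its difference of -0.18 (-0.32 to -0.04) was -0.22 with controls 1-5 and -0.15 with controls 6-10. Cyp51, which demethylates lanosterol, had -0.13 (-0.25 to -0.01). Hmgcs1, a synthase early in the pathway, fell by 0.20 in PER2-S662D with a difference of -0.10 (-0.21 to 0.01), and Stard4, a sterol carrier, fell by 0.24 with a difference of -0.13 (-0.30 to 0.03).

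Lists of fuel use had small differences of responses with all controls. Fatty acid oxidation and ketone use had a median difference of 0.02 over 23 members, and glycolysis and glucose uptake had 0.07 over 21. All 21 glycolysis intervals lay within 0.5, against 65.9% of all genes. With controls 1-5 and controls 6-10 the median was 0.05 and 0.01 for fatty acid oxidation. For glycolysis it was 0.13 and -0.01, so this value depended on the control set. Slc2a1, the glucose transporter of the blood-brain barrier, rose by 0.58 in controls and by 0.81 in PER2-S662D, a difference of 0.23 (-0.04 to 0.49), with 0.43 in the libraries that carry the digit and -0.13 in the others. The 13 mitochondrially encoded proteins had a median difference of 0.15 with all controls, above 0 in 13 of 13. With controls 1-5 it was 0.10, above 0 in 9 of 13, and with controls 6-10 it was 0.21, above 0 in 13 of 13. With all controls an unadjusted p below 0.05 was reached by 4, all higher (background 3.12%), and 0 were called. The highest was mt-Nd3, a subunit of complex I, at 0.39 (0.03 to 0.75), with 0.25 in the libraries that carry the digit and 0.57 in the others. Of the 50-base windows of mt-Nd3, 98% also occur in Gm28438, so the counts of the 2 cannot be fully told apart. These transcripts are cut from shared precursors, so they do not count as independent of each other.

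The nuclear genes of the respiratory chain and of cytosolic ribosomes had a difference of responses against controls 1-5 and not against controls 6-10. Of 82 respiratory chain genes, 24 were called lower on fasting in controls 1-5 (background 4.24%), 0 of 81 were called lower and 1 higher in controls 6-10, and 0 of 82 were called in PER2-S662D (24 at an unadjusted p below 0.05, all higher, background 7.63%), with median responses of -0.19, 0.21 and 0.14. Their difference of responses therefore had a median of 0.35 with controls 1-5, where 26 were called higher (background 1.72%), and of -0.04 with controls 6-10, where 0 were called. Between the control sets themselves 54 of 82 were called lower (background 5.99%), with a median of -0.40. Cytosolic ribosomal protein genes gave -0.18, 0.16 and 0.13 in controls 1-5, controls 6-10 and PER2-S662D. Of the 87 tested across all libraries, 43 were called lower between the control sets (background 5.99%). Against controls 1-5, 7 were called higher (background 1.72%), and 0 against controls 6-10. GABA-A and glutamate receptor genes did the reverse, with median responses of 0.10, -0.13 and -0.09. Of those 33 genes, 6 were called lower in PER2-S662D against controls 1-5 (background 1.01%), 0 against controls 6-10, and 15 were called higher between the control sets (background 4.63%).

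Mean levels of the respiratory chain list differed between the control sets in the fed as well as the fasted state. Gene by gene, 0 of 18063 were called between fed control sets (lowest adjusted p = 0.114, edgeR's quasi-likelihood test) and 1088 between fasted ones. The respiratory chain list averaged 0.12 ± 0.04 (SD, n = 5) in fed controls 1-5, -0.11 ± 0.14 in fed controls 6-10 and -0.10 ± 0.11 in fed PER2-S662D, on a log2 scale centred over all libraries. After the fast the values were -0.09 ± 0.10, 0.11 ± 0.08 and 0.04 ± 0.13. Fed PER2-S662D and fed controls 6-10 differed by less than their spread, and the mean of fed controls 1-5 lay above both.

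**Figure D4:**
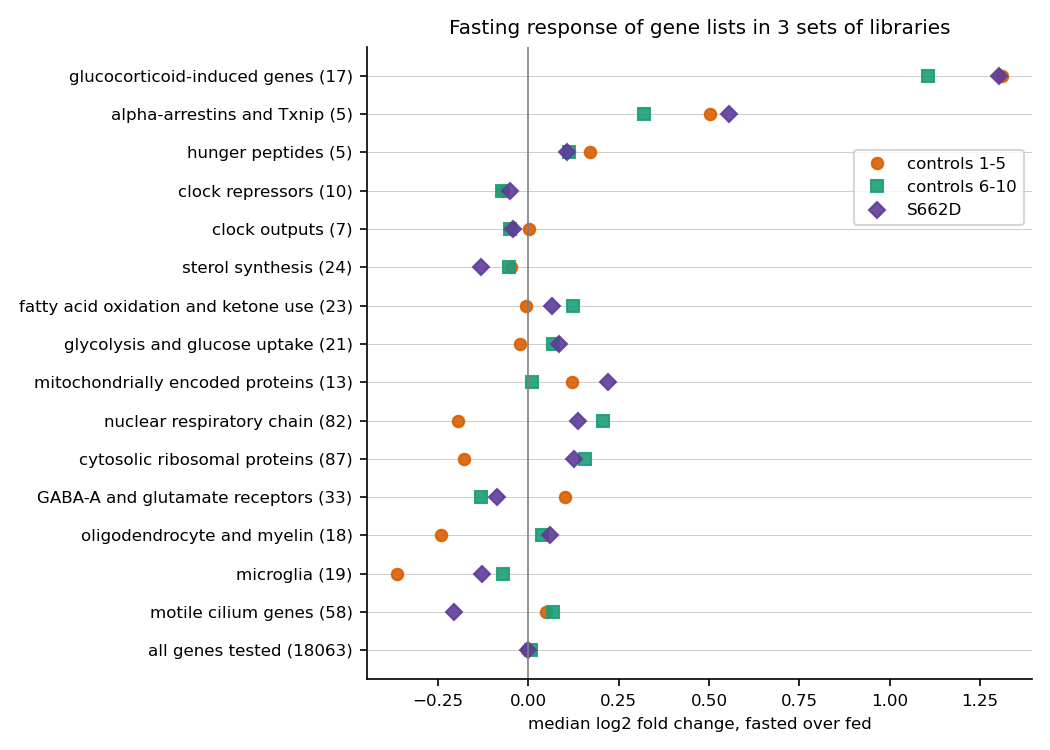
Median log2 fold change on fasting (x axis) of 15 gene lists and of all genes in controls 1-5 (circles), controls 6-10 (squares) and PER2-S662D (diamonds), with the number of members tested in brackets. The respiratory chain, ribosomal, receptor and myelin lists have PER2-S662D near controls 6-10 and away from controls 1-5, while the glucocorticoid-induced list is high in all 3.

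The split between the control sets moved with the length of the genes' exons. In the 1807 genes of the shortest of 10 length bins (median 689 bases) the median response was -0.11 in controls 1-5, 0.12 in controls 6-10 and 0.07 in PER2-S662D. In the longest bin (median 11099 bases) the values were 0.08, -0.07 and -0.06, and the medians of the 8 bins between changed step by step. The difference of responses consequently ran from 0.16 to -0.14 across the bins with controls 1-5, and from -0.06 to 0.01 with controls 6-10. The 306 genes called higher against controls 1-5 had a median exon length of 1798.5 bases and the 180 called lower 8263.5 bases, against 3628 bases over all genes. The part of exon length in the differences of the gene lists was not tested.

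**Figure D5:**
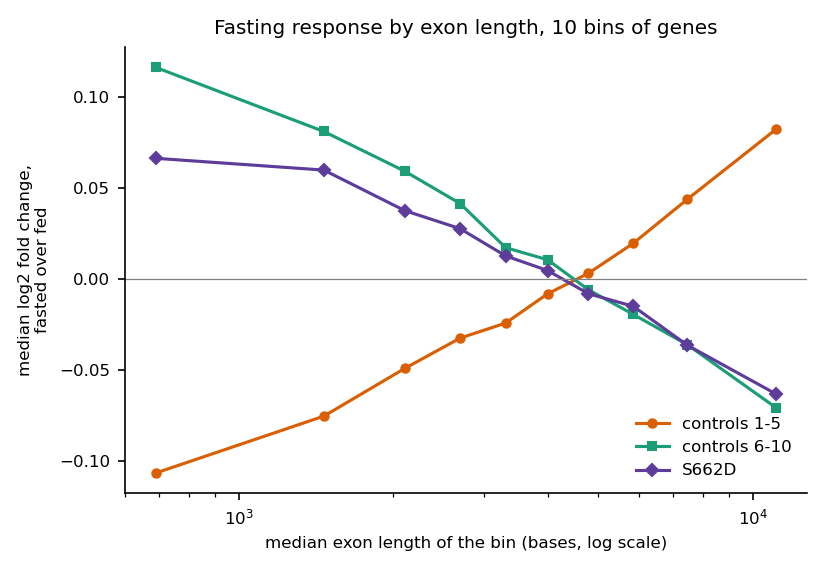
Median log2 fold change on fasting (y axis) in 10 equal bins of genes by exon length (x axis, log scale) for controls 1-5, controls 6-10 and PER2-S662D. The line of controls 1-5 runs from -0.11 up to 0.08, and those of controls 6-10 and PER2-S662D run down from 0.12 and 0.07 to -0.07 and -0.06.

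The genes called between the control sets, in a fit where all 35 libraries set the spread, were read in PER2-S662D as a description. Of those called higher, 835 were tested in all fits, with median responses of 0.17 in controls 1-5, -0.14 in controls 6-10 and -0.07 in PER2-S662D, and the PER2-S662D response was nearer to that of controls 6-10 in 697 of 835. Of those called lower, it was nearer in 951 of 1081, with medians of -0.23, 0.18 and 0.09. Over all genes it was nearer in 10956 of 17660.

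Pvalb and Zdbf2 were called against controls 1-5 and also between the control sets. Pvalb, the calcium buffer of fast-spiking neurons, stood at 40.7, 41.2, 37.1, 38.2 and 40.5 CPM in fed and 73.1, 62.6, 55.6, 49.6 and 54.2 CPM in fasted PER2-S662D libraries. Controls 1-5 ranged from 52.6 to 66.7 CPM fed and from 45.2 to 56.4 CPM fasted, and controls 6-10 from 39.4 to 57.7 CPM fed and from 57.5 to 64.4 CPM fasted. Feeding states were fully apart in PER2-S662D, overlapped in controls 1-5 with the fasted libraries lower, and nearly parted in controls 6-10 with the fasted libraries higher. The difference of responses was 0.82 with controls 1-5 (adjusted p = 0.000835, edgeR's quasi-likelihood test), 0.24 with controls 6-10 and 0.53 with all controls.

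Zdbf2, an imprinted gene that supports feeding in young mice, stood at 72.1, 81.3, 86.9, 96.7 and 74.8 CPM in fed and 59.7, 55.9, 68.0, 66.6 and 67.9 CPM in fasted PER2-S662D libraries. Controls 1-5 ranged from 54.2 to 70.5 CPM fed and from 72.6 to 83.4 CPM fasted, with no overlap, the reverse of PER2-S662D. Controls 6-10 ranged from 61.8 to 84.4 CPM fed and from 52.7 to 67.1 CPM fasted, lower after the fast as in PER2-S662D. Its difference was -0.71 with controls 1-5 (adjusted p = 0.00286) and -0.09 with controls 6-10.

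Rln3, a peptide of brainstem neurons, had a difference of 3.22 with controls 1-5, 1.16 with controls 6-10 and -2.06 between the control sets, at 0.22 to 1.21 CPM in fed and 1.63 to 5.91 CPM in fasted PER2-S662D libraries. Mt3, a brain metallothionein, had 0.85 with controls 1-5, -0.23 with controls 6-10 and -1.08 between the sets. Kcng4, a modifier subunit of potassium channels, had 0.97, -0.13 and -1.10. The axon guidance cue Sema3a had -0.72 with controls 1-5 and -0.13 with controls 6-10, and the transcription factor Ebf2 had -0.81 and -0.03. Prokr2, a receptor of a clock output peptide, had -0.61 with controls 1-5 and 0.35 with controls 6-10.

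Markers of glia and of other cells were read for the same comparison. Of 18 oligodendrocyte and myelin genes, 7 were called higher against controls 1-5 (background 1.72%) and 0 against controls 6-10, with Bcas1, a gene of newly formed oligodendrocytes, at 0.50 and 0.12. Of 19 microglial genes, 12 were called lower on fasting in controls 1-5 (background 4.24%), 3 in controls 6-10 (0.646%) and 3 in PER2-S662D (0.83%), with medians of -0.36, -0.07 and -0.13. Only 1 microglial gene, the complement gene C1qc, was called for the interaction with controls 1-5 (0.70), where its value with controls 6-10 was -0.05. The mean microglial level was 0.11 ± 0.05 in fed and -0.09 ± 0.10 in fasted PER2-S662D libraries (SD, n = 5). In bulk tissue fewer cells of a type and less RNA per cell cannot be told apart. Fabp7, a fatty acid binding protein of astrocytes and tanycytes, fell by 0.59 in PER2-S662D and had a response of -0.20 in controls, a difference of -0.38 (-0.66 to -0.10). Fabp7 was the lowest of 15 astrocyte genes, a list with a median difference of 0.04 and 9 of 15 members above 0. The Fabp7 difference was -0.23 with controls 1-5 and -0.55 with controls 6-10. With all controls it was -0.53 with the libraries that carry the header digit and -0.15 with the others. Crhr2, a receptor for urocortins, ranged from 3.10 to 4.14 CPM in fed and from 2.27 to 3.38 CPM in fasted PER2-S662D libraries, overlapping, with a difference of -0.55 (-0.96 to -0.13), which was -0.80 and -0.16 in the same split.

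Markers of the choroid plexus, the epithelium that secretes cerebrospinal fluid, varied widely between libraries of 1 group. Ttr, its defining transport protein, stood at 6.68, 620, 26.4, 23.1 and 604 CPM in fed and 23.6, 1.28, 12.2, 17.4 and 253 CPM in fasted PER2-S662D libraries. Control libraries ranged from 2.39 to 889 CPM fed and from 1.89 to 1431 CPM fasted, so single libraries carried the group means. The summed level of the 11 list genes ranged from 268 to 1271 CPM in fed and from 229 to 637 CPM in fasted PER2-S662D libraries, and from 271 to 1653 CPM and 222 to 2406 CPM in the controls. The part of choroid plexus content in any other result was not tested. The list's median difference was -1.60 with all controls, -0.02 with controls 1-5 and -2.47 with controls 6-10. By edgeR's quasi-likelihood test 0 of 11 were called with all controls or with controls 6-10. With controls 1-5, 1 of 11 was called, Prlr at -0.72 (background 1.01% called lower). An unadjusted p below 0.05 was reached by 5 with all controls, all lower (background 3.26%). With controls 6-10 it was reached by 10 (background 2.5% in that direction). Slc39a4, a zinc importer, had a difference of -0.75 with all controls, -0.19 with controls 1-5 and -1.30 with controls 6-10.

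A list of motile cilium genes was chosen after its members were seen among the lowest p-values, so its values are a description. Axonemal dyneins, radial spoke and cilia-associated proteins are parts of the beating cilia that ependymal cells carry on the ventricle wall. The median response was 0.05 in controls 1-5, 0.07 in controls 6-10 and -0.20 in PER2-S662D, and the median difference was -0.25, -0.24 and -0.25 with controls 1-5, controls 6-10 and all controls, comparisons that share the PER2-S662D libraries. Of 58 genes, 49 were below 0, and 20 had an unadjusted p below 0.05 in the lower direction (background 3.26%). The choice of the list favours such members. By edgeR's quasi-likelihood test 0 were called. Dnah7c, an inner arm dynein, stood at 3.14, 3.94, 3.31, 4.73 and 4.22 CPM in fed and 3.69, 2.09, 3.12, 3.45 and 3.91 CPM in fasted PER2-S662D libraries. Controls ranged from 2.54 to 3.66 CPM fed (median 3.06) and from 3.61 to 4.63 CPM fasted (median 3.91). In controls, 9 of 10 fasted libraries were above all fed ones, and the PER2-S662D groups overlapped. Its difference was -0.60 (-0.94 to -0.26), or -0.83 with the libraries that carry the header digit and -0.29 with the others, and 46.8% of its 50-base windows are shared with other genes, chiefly Dnah7b. The mean list level was 0.07 ± 0.12 in fed and -0.11 ± 0.14 in fasted PER2-S662D libraries (SD, n = 5), and -0.01 ± 0.12 and 0.04 ± 0.11 in controls (SD, n = 10). Foxj1, the transcription factor that defines ependymal cells and a gene chosen after its values were seen, had a difference of -0.25 (-0.63 to 0.14), with 0.03 against controls 1-5 and -0.50 against controls 6-10. The list of 13 tanycyte and ependyma genes had median differences of -0.04, 0.00 and -0.01 with all controls, controls 1-5 and controls 6-10. The part of ependymal cell content in the list's difference was not tested.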

How the data were processed

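Polyadenylated RNA of 35 hypothalamus libraries was read as deposited raw counts per gene name. Per the file headers, the authors made these counts with featureCounts 2.0.1 on mm10 with GENCODE vM12, without strand and with multi-mapping alignments counted, and STAR 2.7.10b is named in the submitters' processing notes. Genes that share sequence can therefore share reads.

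Counts were filtered with filterByExpr (minimum count 10), scaled by TMM and fitted with edgeR 4.0.16 (R 4.3.3; quasi-likelihood test, Benjamini-Hochberg threshold 0.05), without covariates. All 35 libraries entered the fit with all controls, and the fit between the control sets, where controls 1-5 and 6-10 were groups of their own. Fits against 1 control set left out the other set. Intervals are 95% and cover the spread between libraries. limma 3.58.1 (voom) and DESeq2 1.42.0 were alternatives, and the fits were tested on simulated data. CPM values use TMM-scaled library sizes. The members and lists were chosen with earlier results of these data known.

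Named genes were Per2, members of lists of up to 10 genes, the glucocorticoid-induced and sterol lists, each list's highest and lowest member, the 5 lowest p-values in each direction among genes of at least 1 CPM, the 10 largest calls in each direction against a single control set or between the sets, and the 15 largest responses called in both genotypes. Genes known only by clone names were left out. Replicate numbers were not taken to pair the samples, since not every pair's correlation was over 0.1. Some genes within this rule are not reported here.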

Additional observations from a re-analysis of the deposited data

Results flagged for a closer look

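Among 88 groups of 4 to 10 libraries examined for a single library far from the others, 6 stood out, where chance gives about 1 in 20. Sgk1 stood at 154.8 CPM in fasted PER2-S662D replicate 1, with the next library at 278.9 CPM. Npy stood at 15.12 CPM in fasted PER2-S662D replicate 2, with the next at 11.33 CPM. Per2 stood at 32.55 CPM in fed control 9. Ttr stood at 888.8 CPM in fed control 2 and at 252.6 CPM in fasted PER2-S662D replicate 5. The mean log2 level of the glucocorticoid-induced list was 0.8226 in fasted control 10, with the next of fasted controls 6-10 at 0.2544.

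The responses to fasting differed between groups in 486 genes for PER2-S662D against controls 1-5 and in 1918 genes for controls 1-5 against controls 6-10, by the interaction term of edgeR's quasi-likelihood test. Both comparisons use controls 1-5, with opposite sign, so a call in both is not independent support. Called in both, with the log2 difference against controls 1-5 first and that between the control sets second, were Bcas1 (0.50 and -0.38), C1qc (0.70 and -0.74), Kcng4 (0.97 and -1.10), Mt3 (0.85 and -1.08), Prokr2 (-0.61 and 0.97), Pvalb (0.82 and -0.58), Rln3 (3.22 and -2.06), Stac2 (0.61 and -0.37), Zdbf2 (-0.71 and 0.62) and Ebf2 (-0.81 and 0.78). Fth1 (0.25), Mkks (0.33), Wsb1 (-0.37) and Sema3a (-0.72) were called against controls 1-5 alone of the pair, and Slc39a4 (-1.12) between the control sets alone. The call against controls 1-5 was lost on leaving out any of 14 single libraries for Fth1, Kcng4, Mt3 and Prokr2, of 12 for Wsb1, of 10 for Sema3a and of 6 for Ebf2 and Mkks. The call between the control sets was lost for Rln3 without any of 8 libraries and for Stac2 without 1.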

How the results depend on the processing

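With library size alone the balance of calls turned, to 171 of 492 higher against controls 1-5 and 262 of 590 for fasting in PER2-S662D. With the 6 PER2-S662D libraries that carry the additional header digit, the interaction called 9 genes against all controls, 8 against controls 6-10 and 1304 against controls 1-5. With the 4 others it called 0 against controls 1-5, and fasting called 7 genes in PER2-S662D, where fewer libraries make a call less likely. The digit as a term gave 1173 genes and DESeq2 1112 against controls 1-5. Control libraries fitted alone gave 2956 genes between the control sets. Fasting in controls called 1315 genes in libraries 1-5 and 304 in 6-10. The cause was not tested.

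Leaving out 1 library gave 56 to 1057 genes against controls 1-5, 814 to 2140 between the control sets, 572 to 785 for fasting in controls and 311 to 585 in PER2-S662D. Against controls 1-5 the count fell to 56, 66 and 251 without fed controls 4, 3 and 5, and to 65, 181 and 244 without fasted controls 5, 4 and 3. It fell to 71, 85 and 243 without fed PER2-S662D 4, 2 and 3, and to 72 and 311 without fasted PER2-S662D 2 and 1. It rose to 775 without fasted control 1, to 831 and 876 without fed PER2-S662D 1 and 5, and to 1057 without fasted PER2-S662D 3. Between the control sets it fell to 814 and 1278 without fed controls 9 and 3, and to 870 and 1257 without fasted controls 5 and 9. Fasting in PER2-S662D called 311 genes without fasted replicate 2.

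Same-numbered fed and fasted libraries deviated together with correlations of -0.14 to 0.05 in controls and -0.09 to 0.10 in PER2-S662D, so the numbers were not taken to pair the samples. Between genotypes the correlations were -0.01 to 0.25 fed and -0.02 to 0.10 fasted, with 1 of 5 pairs over 0.1 and 3 of 5 libraries correlating best with their own number in each state. With a replicate block the counts were 0 against all controls, 560 against controls 1-5, 0 against controls 6-10, 1822 between the control sets, 697 for fasting in controls and 438 in PER2-S662D.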
